A study of Mus musculus with 18 samples.

Results

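The genes of 3 extracellular lipases (Lpl, Lipc, Lipg), of 2 angiopoietin-like proteins that act on lipoprotein lipase (Angptl4, Angptl8) and of the capillary anchor of that lipase (Gpihbp1) were followed through 18 ChIP-seq peak lists of mouse liver. These 6 genes, of 21887 protein-coding genes measured the same way, were chosen by name. Each was taken as its RefSeq span on build GRCm38.p6 (mm10) with 10 kb on each side, and the measure was the number of base pairs in that window that deposited peaks covered. The livers came from C57BL/6 mice at 8 weeks of age. All of them carried floxed Ctcf alleles: the group called WT was CTCF fl/fl Albcre-, and the group called KO was CTCF fl/fl Albcre+. The Alb-Cre transgene is driven by the promoter of the albumin gene, which is active in hepatocytes, while the chromatin came from whole liver. A smaller share of cells that carry a peak and a weaker peak in each cell therefore cannot be told apart. The labels number the libraries but do not state that each came from a separate animal, so that p-values measure the spread between these libraries.

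Lipoprotein lipase, the product of Lpl, cleaves the triglycerides of chylomicrons and very-low-density lipoproteins at the wall of capillaries, mainly in heart, muscle and fat, where the endothelial protein GPIHBP1 carries it across the cell and holds it. Hepatic lipase (Lipc) is secreted by hepatocytes and acts on remnant particles and high-density lipoproteins, and endothelial lipase (Lipg) acts mainly on the phospholipids of high-density lipoproteins. ANGPTL4 inhibits lipoprotein lipase, rises on fasting and is a classical target of the PPAR nuclear receptors, of which PPARg is the fat storage member. ANGPTL8 rises on feeding and limits the activity of lipoprotein lipase.

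The lists covered PPARg (WT 2, WT 4, KO 7, KO 8), H3K27ac, found on enhancers and promoters in use (WT 1, 2 and 4, KO 2, 3 and 4), CTCF, which binds insulators and domain boundaries (WT164, WT165, KO160, KO163), H3K4me3, a mark of active promoters (WT 2, KO 4), and H3K27me3, the mark of Polycomb repression (WT156, KO150). CTCF and 3 PPARg libraries were tagmentation libraries of male mice on chow after an overnight fast. PPARg WT 4 and all histone mark libraries were made with a ligation kit from mice of unstated sex and feeding state. PPARg WT 4 also had a looser threshold, with a lowest −log10 q of 1.31 against 3.00 to 3.01 in the other 3 lists. Read depth is unknown, so the size of the lists stands in for it. The total length covered by KO peaks, divided by that of WT peaks, was 2.63 for PPARg, 1.16 for H3K27ac, 0.756 for CTCF, 0.879 for H3K4me3 and 1.56 for H3K27me3. These whole-list ratios are the background of every value below. The H3K27ac list of KO 4 was by far the longest (126 Mb), and those of the other 5 libraries ranged from 78.2 to 91.5 Mb. The CTCF lists of KO livers still held 18597 and 20323 peaks. All 8 hepatocyte markers in a fixed list, among them Alb, carried H3K27ac peaks, with a summed length of 144 to 172 kb in WT and 144 to 167 kb in KO libraries.

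Promoter sequences, the 250 bases before a RefSeq start on build GRCm38.p6, were found for 2 of the 6 genes, Angptl8 and Lipc. They are shown because the 3 starts differ in whether PPARg peaks lie on them. Capitals mark each AGGNCA, the hexamer that nuclear receptor sites repeat, read on both strands, so that its reverse complement appears as TGNCCT. The first is the Angptl8 promoter, chr9:21835260-21835509 on the plus strand. The second is an internal Lipc start, chr9:70934809-70935058 on the minus strand, which lies 17.4 kb inside the outer end of the gene. The third is the outer Lipc start, chr9:70952222-70952471, also on the minus strand.
Angptl8 promoter: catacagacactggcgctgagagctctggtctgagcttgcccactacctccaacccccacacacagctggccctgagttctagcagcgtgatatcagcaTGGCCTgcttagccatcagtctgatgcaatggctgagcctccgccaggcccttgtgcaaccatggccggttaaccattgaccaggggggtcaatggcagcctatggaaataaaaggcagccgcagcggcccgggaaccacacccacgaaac
Lipc internal promoter: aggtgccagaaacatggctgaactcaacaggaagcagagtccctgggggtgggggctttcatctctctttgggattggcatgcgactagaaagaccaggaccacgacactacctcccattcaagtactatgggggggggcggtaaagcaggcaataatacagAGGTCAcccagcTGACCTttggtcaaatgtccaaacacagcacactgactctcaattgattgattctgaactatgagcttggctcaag
Lipc outer promoter: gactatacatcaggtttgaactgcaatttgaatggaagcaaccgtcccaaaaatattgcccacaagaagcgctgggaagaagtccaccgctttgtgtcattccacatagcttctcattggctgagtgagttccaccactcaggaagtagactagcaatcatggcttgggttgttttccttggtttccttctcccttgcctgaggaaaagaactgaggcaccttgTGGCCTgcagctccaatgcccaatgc
The internal Lipc promoter holds 2 AGGNCA matches, both of the full form AGGTCA, at 88 to 83 and, on the opposite strand, at 76 to 71 bases before the start. The Angptl8 promoter holds 1 match (151 to 146 bases before the start) and the outer Lipc promoter 1 (26 to 21 bases before it). Of 32817 promoters of this length, 51.31% held AGGNCA and 14.03% held AGGTCA (which is contained in the former), so that a match alone is common. The pentamer CCCTC, part of the CTCF motif, was in none of the 3 and in 60.54% of all promoters. PPARg peaks of all 4 libraries and H3K27ac peaks of all 6 lay on the Angptl8 promoter and on the internal Lipc promoter. No peak of any target in any library lay on the outer Lipc promoter.

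Lipg, on chr18:74939322-74961263, had the largest rise in PPARg coverage among the members that passed the test, measured as a log2 change, a call that was kept with lists of equal length and lost on division by total covered length. PPARg peaks covered 3565 bp of its window in WT 2, 3404 bp in WT 4, 8272 bp in KO 7 and 8921 bp in KO 8. Both KO libraries lay above both WT libraries, and the ratio of the KO to the WT mean was 2.47, against 2.63 for the whole lists. With limma on log2(bp + 100), KO was higher by 1.28 (SE 0.14, n = 2 and 2, Benjamini-Hochberg adjusted p = 0.0135), and the median gene was higher by 1.29. The PPARg coverage of Lipg thus rose by about as much as that of the genome.

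Angptl4, on chr17:33774900-33781575, was the member with the most PPARg coverage in every library. It had 5203 bp in WT 2, 4667 bp in WT 4, 9532 bp in KO 7 and 10955 bp in KO 8. The groups did not overlap, and the ratio of their means was 2.08. The log2 change was 1.04 (SE 0.15, limma adjusted p = 0.0150). In KO 8 these peaks filled 41.1% of the Angptl4 window, and in WT 4 they filled 17.5%.

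Lipc, on chr9:70798128-70952221, had 4239 bp and 3708 bp of PPARg peaks in WT 2 and WT 4, and 7760 bp and 7652 bp in KO 7 and KO 8. The means of Lipc stood in a ratio of 1.94 (KO over WT), a log2 change of 0.94 (SE 0.15, limma adjusted p = 0.0167). Lipc is much the longest of the 6 genes, with 154094 bp, so that peaks filled no more than 4.46% of its window in any library.

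Angptl8, on chr9:21835510-21837347, moved little. Its PPARg coverage was 2218 bp in WT 2, 1782 bp in WT 4, 2377 bp in KO 7 and 2390 bp in KO 8. KO lay above WT without overlap, but by a ratio of only 1.19, and the log2 change of 0.25 (SE 0.22) did not pass the limma test (adjusted p = 0.383). The Angptl8 span lies inside that of Dock6, a guanine nucleotide exchange factor gene, which covers its whole window, so peaks there belong to both windows.

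Lpl, on chr8:68880555-68906932, had no PPARg peak in WT 2, WT 4 or KO 7 and 547 bp in KO 8. Its log2 change was 1.35 (SE 1.05, limma adjusted p = 0.352), and it rests on that single library. Without KO 7 it became 2.69, which sets a single KO library against WT libraries without a peak, so no test is given. Gpihbp1, on chr15:75596630-75598213, had no PPARg peak in any library and was not tested. The members with coverage in WT were thus the hepatic and endothelial lipases and both angiopoietin-like genes, and those without it were Lpl and Gpihbp1.

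**Figure D1:**
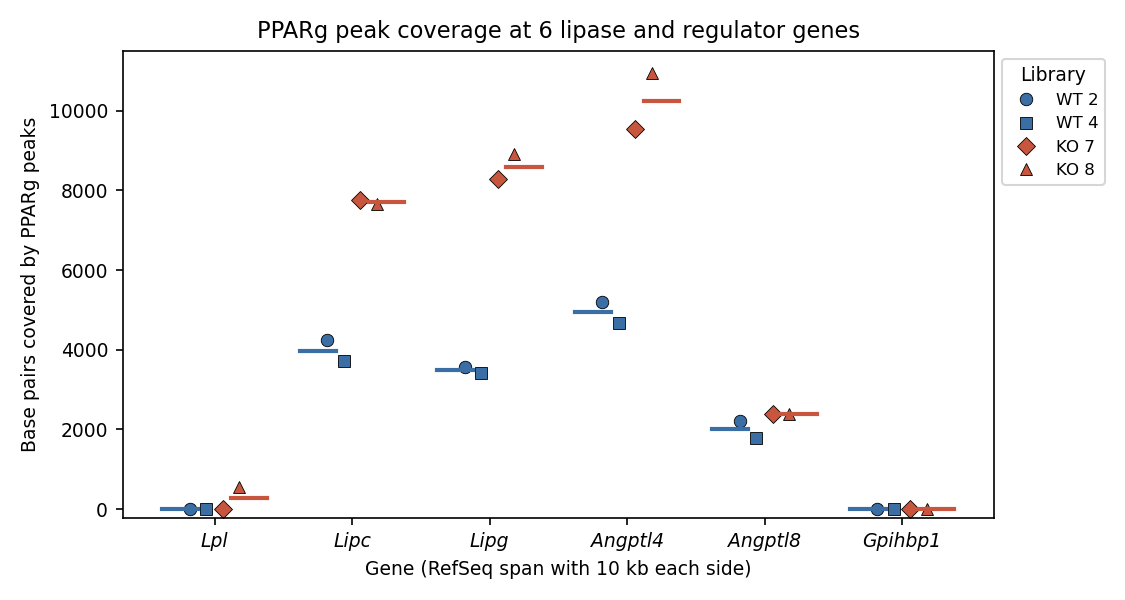
Base pairs covered by PPARg peaks (vertical axis) in the window of each gene (horizontal axis); points are libraries, blue for WT and red for KO, and lines are group means. KO points lie above WT points at Lipc, Lipg and Angptl4 in these values, which are not scaled (divided by total covered length, the changes turn negative), the 4 points of Angptl8 lie between 1782 and 2390 bp, and all 4 libraries are at 0 at Gpihbp1.

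Of the 5 members with any PPARg peak 3 were called higher in KO, where 49.1% of 10134 genes were called higher. KO lay above WT without overlap in 4 of the 5, against 72.3% of genes. How the whole-list shift was taken out decided which of these calls were kept. With the lists shortened to equal length by −log10 q, 2033 of 8426 tested genes were called, 1968 of them higher in KO. Among them were Lipg at 1.26 (limma adjusted p = 0.0343) and Angptl4 at 0.95 (limma adjusted p = 0.0437) but not Lipc at 0.34 (limma adjusted p = 0.222). After each library was divided by its total covered length, the percentage of genes called was 0 in either direction (limma, adjusted p under 0.05, with 2002 genes higher and 934 lower at an unadjusted p under 0.05). On that scale the log2 changes were -0.11 for Lipg (adjusted p = 0.634), -0.35 for Angptl4 (adjusted p = 0.184), -0.44 for Lipc (adjusted p = 0.100) and -1.10 for Angptl8 (adjusted p = 0.0568), while the median gene stood at 0.39. KO then lay below WT without overlap at Angptl4, Lipc and Angptl8, 3 of the 5, against 20.5% of genes. For Angptl8, the clearest of these, each Mb of the lists gave 247 bp in WT 2, 258 bp in WT 4, 114 bp in KO 7 and 113 bp in KO 8. Relative to the whole lists, the KO to WT ratio was 0.936 for Lipg, 0.788 for Angptl4, 0.736 for Lipc and 0.452 for Angptl8.

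The fits that leave out 1 library hold a single library in 1 group, which is assumed to vary like the other group. They cannot show whether a call would hold, so only the log2 changes are given here. Without WT 4, the library of the other kit and threshold, the change was 1.25 for Lipg, 0.96 for Angptl4 and 0.85 for Lipc. In the same order the changes were 1.31, 1.11 and 1.04 without WT 2. They were 1.33, 1.14 and 0.93 without KO 7, and 1.22, 0.94 and 0.95 without KO 8. Hepatocyte, endothelial, macrophage and adipocyte marker lists rose in summed PPARg coverage by ratios of 2.69, 2.20, 3.97 and 2.98, with 8 of 8, 5 of 10, 3 of 8 and 4 of 5 genes above WT without overlap. The stellate cell list had 0 kb in WT and 0 to 0.304 kb in KO, with 7 of 8 genes at 0. The range for the macrophage list was 1.21 to 1.34 kb in WT and 4.53 to 5.61 kb in KO, with Clec4f, Marco and Timd4 at 0, and for the endothelial list 3.52 to 4.83 kb and 8.20 to 10.1 kb, with Cdh5, Tek, Clec4g and Emcn at 0. The part of these cells in the changes at the members was not tested.

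Merging overlapping PPARg peaks gave 28 regions at the members, 13 of them called in all 4 libraries, 2 in both KO libraries alone, 0 in WT alone and 13 in other combinations. Of all 33952 PPARg regions, 29.8% were called in all 4 libraries and 17.9% in both KO and neither WT, while 356 were called in both WT and neither KO. Inside the gene spans lay 19 of the 28, and 9 lay outside or across an end. H3K27ac peaks of all 6 libraries overlapped 20 of them, H3K27ac peaks of some libraries overlapped 7, and 1 had none. Among all PPARg regions 60.8% met H3K27ac of all 6 libraries, and among those called in all 4 lists 85.08% did. None of the 28 overlapped a CTCF peak, but the share of all PPARg regions that do was not counted, so this has no background.

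The fold enrichment over background that the authors give each peak ranks peaks within a list. Folds of different lists are set side by side below as a description, without scaling and without a test. Over all 10131 PPARg regions called in all 4 lists, the median fold was 9.03 in WT 2, 7.65 in WT 4, 13.5 in KO 7 and 12.9 in KO 8. The fold was higher in both KO than in both WT lists at 67.5% of these regions, and at 10 of the 13 at the members. A higher fold in KO was thus common to most shared regions. How far shared regions widened over the whole lists was not counted, so the widths below stand only beside the whole-list ratio of 2.63. The Lipg window held the highest such value of the 6 genes. It belonged to a region outside the gene, chr18:74933290-74937219, at -6.03 to -2.10 kb from the low-coordinate end and thus far from the opposite end, where H3K4me3 marked a promoter. Its highest fold was 23.4 in WT 2, 18.8 in WT 4, 141 in KO 7 and 140 in KO 8. Within the lists these values ranked 587 and 425 in WT 2 and WT 4, and 48 and 41 in KO 7 and KO 8, of 15520, 16617, 27439 and 26349 peaks. The region was covered for 1876 bp and 1785 bp in the WT libraries, and for 3394 bp and 3901 bp in the KO libraries. H3K27ac of all 6 libraries overlapped it, and so did a 378 bp H3K4me3 peak of the KO library that had no counterpart in WT.

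Another region, across the same end of Lipg (chr18:74938474-74940788), widened most in proportion among the shared regions of this gene. It covered 467 bp in WT 2, 266 bp in WT 4, 1345 bp in KO 7 and 2315 bp in KO 8. Its folds were 9.16, 7.65, 30.6 and 35.4 in that order. The third shared region, chr18:74957886-74959443, lay by the H3K4me3 peak at the opposite end and had folds of 13.8, 14.1, 17.0 and 14.0. There the coverage overlapped between groups, with 1222 bp and 616 bp in WT against 1558 bp and 971 bp in KO. The gain in Lipg coverage thus lay mostly away from the H3K4me3-marked end. Inside the gene, chr18:74943774-74944820 and chr18:74950737-74951844 were called in WT 4, KO 7 and KO 8 but not in WT 2.

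Angptl4 held the region with the highest rank in the WT lists. This region, chr17:33777674-33780873 inside the gene, had folds of 55.3 in WT 2, 29.4 in WT 4, 107 in KO 7 and 113 in KO 8, at ranks 30, 56, 107 and 69. It therefore stood among the strongest PPARg peaks of every liver. Its coverage was 2170 bp, 1897 bp, 2642 bp and 3150 bp, so KO lay above WT without overlap. Next to it, chr17:33781065-33783341 covered 950 bp and 912 bp in the WT libraries, and 1284 bp and 1711 bp in KO 7 and KO 8. The regions at either side of these widened more in proportion. The region chr17:33772708-33776941, across the low-coordinate end, went from 1660 bp and 1527 bp in WT to 3683 bp and 3686 bp in KO. The region chr17:33783426-33785506, beyond the opposite end, went from 423 bp and 331 bp to 1621 bp and 1935 bp. A further region, chr17:33788809-33789305, was called in both KO lists alone, with folds of 7.51 and 6.74. All 5 regions of Angptl4 except this last one were called in all 4 libraries and met H3K27ac of all 6.

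**Figure D2:**
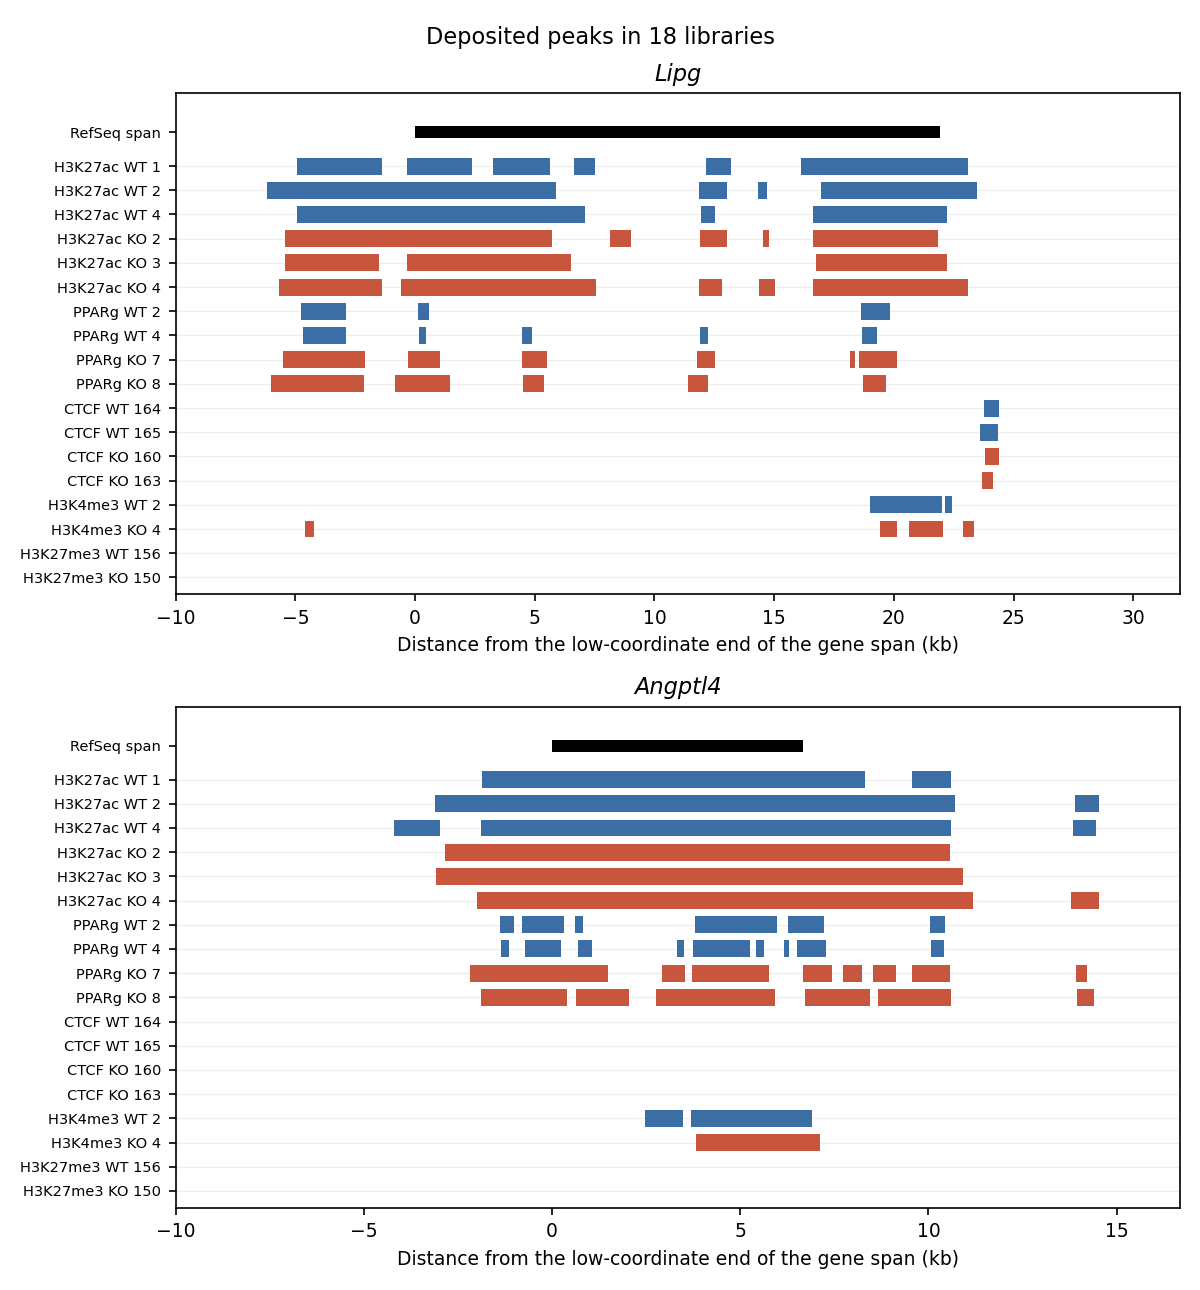
Deposited peaks of all 18 libraries (rows, blue for WT and red for KO) at Lipg and Angptl4, by distance in kb from the low-coordinate end of the gene span (black bar). PPARg peaks are wider in KO 7 and KO 8 left of Lipg, at -6.03 to -2.10 kb, and at both ends of Angptl4, while H3K27ac blocks span most of Angptl4 in all 6 libraries.

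Lipc had 13 PPARg regions, all inside the gene. At the internal start, chr9:70934132-70936131 had folds of 24.4 in WT 2, 12.9 in WT 4, 21.5 in KO 7 and 21.3 in KO 8, with coverage of 1463, 1010, 1699 and 1488 bp. This is the region that covers the promoter with 2 AGGTCA matches, and its change between groups was small. Upstream of that start, chr9:70939128-70940935 went from 956 bp and 965 bp in WT to 1808 bp and 1686 bp in KO, with folds of 22.8, 15.3, 54.6 and 48.3. A far intragenic region, chr9:70833907-70835241, had folds of 20.7, 17.6, 33.6 and 38.7. Within the lists these stood at percentiles 94.41, 96.5, 95.25 and 96.79, and those of chr9:70939128-70940935 at 95.75, 94.54, 98.25 and 98.05. Beside the far region, chr9:70835514-70836042 was called only in KO 7 and KO 8, with folds of 5.90 and 6.00. In the same part of the gene, chr9:70827549-70828409 was called in all 4 libraries, with 338 bp and 496 bp in WT 2 and WT 4, and 466 bp and 861 bp in KO 7 and KO 8, so that its groups overlapped. Of the other 8 regions of Lipc, 5 were called in 1 KO library alone and 3 in 3 libraries of both genotypes.

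The Angptl8 window had 2 PPARg regions, both called in all 4 libraries. The promoter region, chr9:21834692-21835587, covered 434 bp and 408 bp in WT against 778 bp and 838 bp in KO, with folds of 7.44, 7.65, 16.0 and 12.4. The other, chr9:21830319-21832102, lay at -5.19 to -3.41 kb from the start, within Dock6, and covered 1784 bp and 1374 bp in WT against 1599 bp and 1552 bp in KO. The small net change of Angptl8 was therefore the sum of a promoter region that widened and a distal one that did not. The whole lists lengthened by a ratio of 2.63, so the widening is not a gain relative to them. At Lpl, the peaks of KO 8 lay at -0.42 to -0.18 kb and at 3.58 to 3.89 kb from the low-coordinate end, with folds of 6.11 and 5.62, at percentiles 38.70 and 29.25 of that list.

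**Figure D3:**
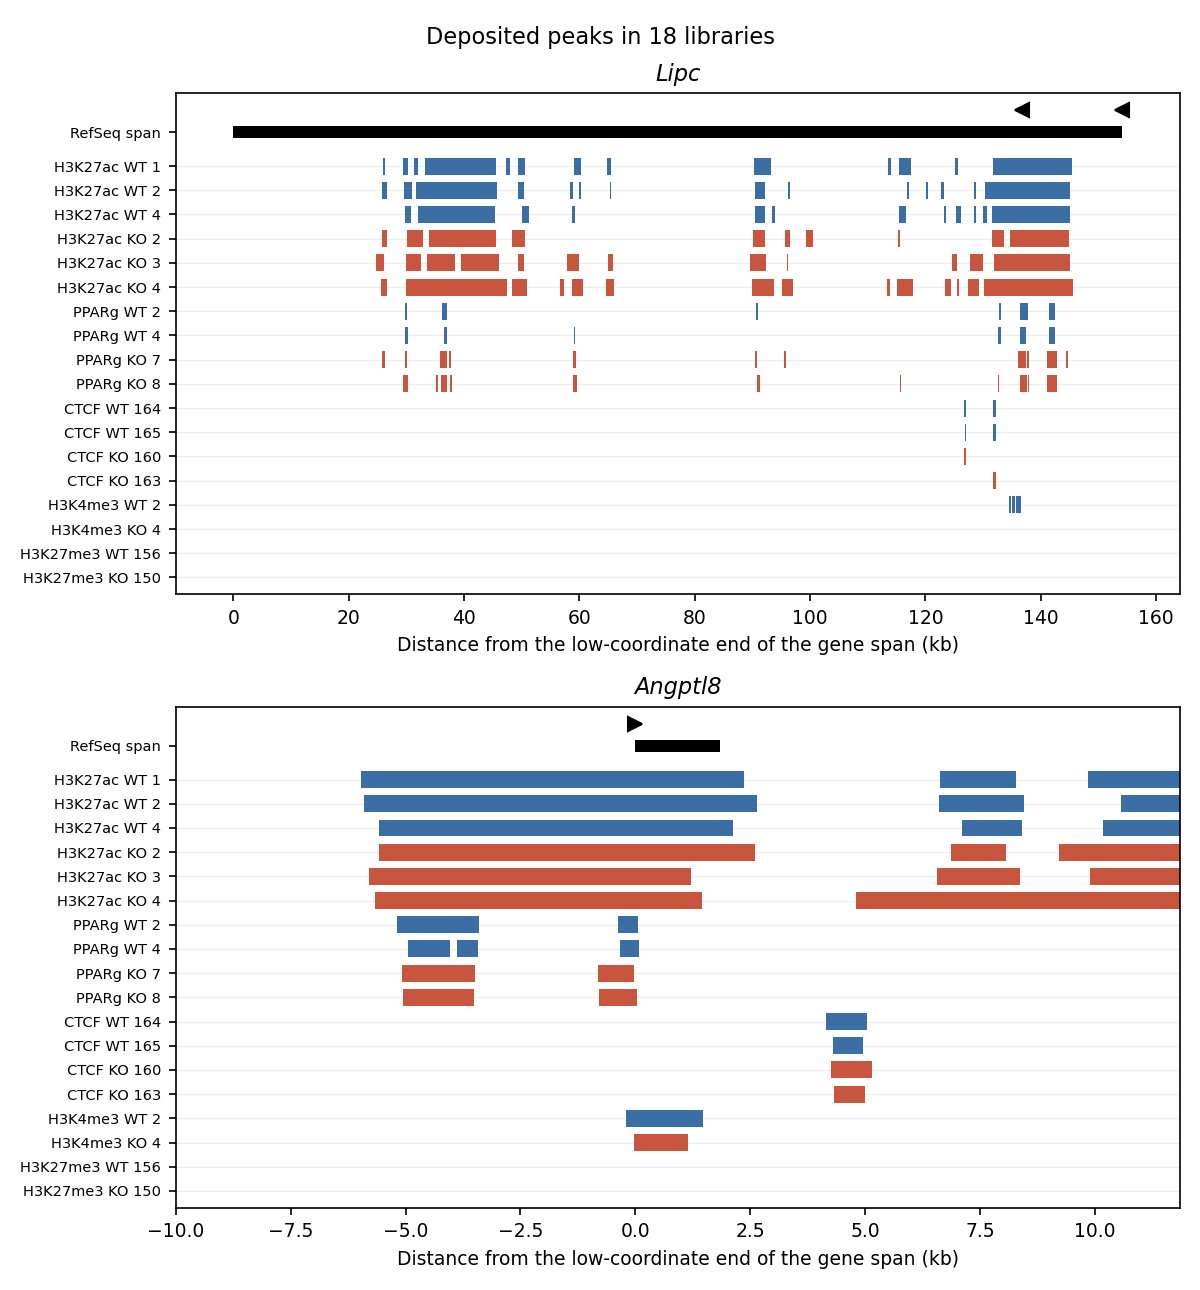
Deposited peaks of all 18 libraries (rows, blue for WT and red for KO) at Lipc and Angptl8, by distance in kb from the low-coordinate end of the gene span (black bar); arrowheads mark RefSeq starts. At Lipc the peaks of PPARg and H3K27ac gather by the internal start, where those of H3K4me3 also lie, and in a far part of the gene, and none lies on the outer start, and at Angptl8 a PPARg peak of every library meets the start.

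H3K27ac coverage showed no change past the test at any member. It filled 38.8% to 64.9% of the windows of Lipg, Angptl4, Angptl8 and Gpihbp1, 19.6% to 30.7% of that of the long gene Lipc and at most 5.42% of that of Lpl. No member was called (limma, percent of window, 3 against 3, adjusted p under 0.05), where the percentage of genes called was 0 of 15512 in either direction, with 952 higher and 92 lower at an unadjusted p under 0.05. The groups overlapped at all 6 members, where 12.1% of genes had groups that did not overlap.

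For Lipg the H3K27ac coverage was 41.9%, 47.9% and 43.4% of the window in WT 1, 2 and 4, against 44.6%, 38.8% and 49.0% in KO 2, 3 and 4. The means were 44.4% ± 3.15 (SD, n = 3) and 44.1% ± 5.12 (limma adjusted p = 0.987). For Angptl4 it was 42.1%, 54.1% and 53.7% in the WT libraries against 50.3%, 52.5% and 52.2% in KO. The lowest of these came from WT 1, and the means of Angptl4 were 49.9% ± 6.82 and 51.7% ± 1.21 (limma adjusted p = 0.914). Angptl8 had 54.8%, 53.4% and 49.0% in the WT libraries against 55.1%, 49.2% and 64.9% in KO, with means of 52.4% ± 3.06 and 56.4% ± 7.94 (limma adjusted p = 0.822).

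For Lipc, H3K27ac peaks covered 21.7%, 21.3% and 20.1% of the window in the WT libraries against 19.6%, 22.3% and 30.7% in KO. The high value was that of KO 4, the library with the longest list. The means were 21.0% ± 0.845 and 24.2% ± 5.81 (limma adjusted p = 0.801), and without KO 4 the difference fell from 3.22 to -0.05 percentage points. The same omission took Angptl8 from 4.01 to -0.25 and Gpihbp1 from 0.62 to -0.81 points. Of the 16 H3K27ac regions of Lipc 4 were called in all 6 libraries, among them the wide block chr9:70925436-70943734 that holds the internal start and chr9:70827550-70846093 in the far part of the gene.

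Gpihbp1 had 43.5%, 46.5% and 45.5% in the WT libraries against 42.2%, 46.5% and 48.7% in KO, with means of 45.2% ± 1.54 and 45.8% ± 3.28 (limma adjusted p = 0.962). A single H3K27ac block, chr15:75590631-75601131, accounted for it in every library and spanned the whole gene, although PPARg and CTCF peaks were lacking there. Lpl had 1.25%, 2.75% and 0% in the WT libraries against 2.02%, 1.93% and 5.42% in KO, all from 1 region at its low-coordinate end (chr8:68879956-68882774). The means of Lpl were 1.33% ± 1.38 and 3.12% ± 1.99 (limma adjusted p = 0.741). Of 27 H3K27ac regions at the members, 10 were called in all 6 libraries, 17 in some, and 0 in all libraries of 1 genotype alone, where 39.6% of all H3K27ac regions were called in all 6. The class of 1 genotype alone was rare, with 620 regions for KO and 99 for WT among all 57360.

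**Figure D4:**
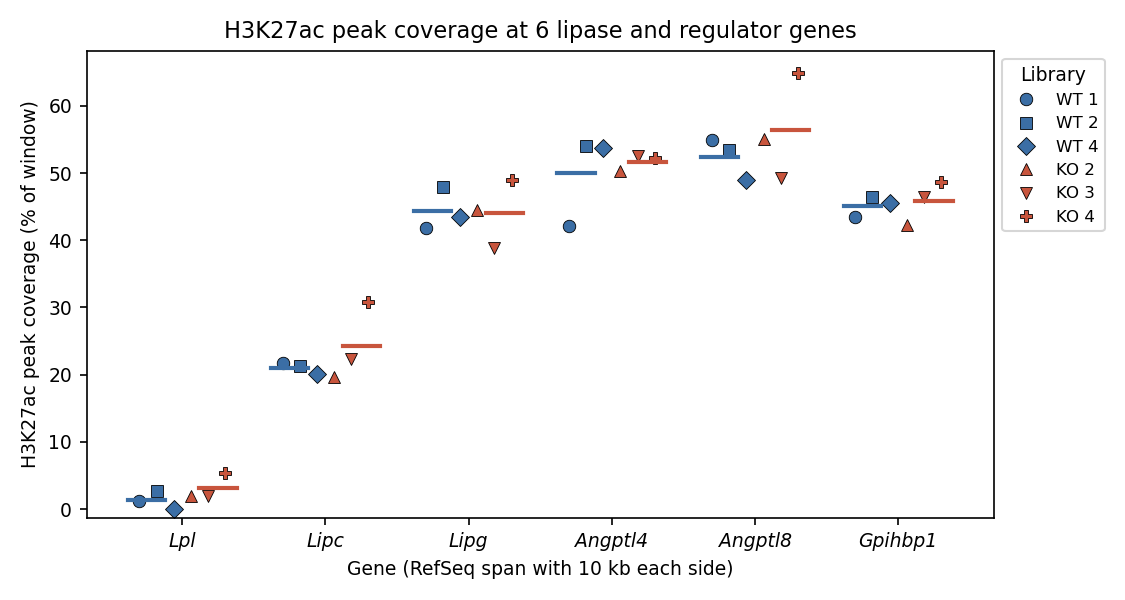
Share of each gene window covered by H3K27ac peaks in percent (vertical axis); points are libraries, blue for WT and red for KO, and lines are means of 3. The groups overlap at all 6 genes, and KO 4 is the highest point at Lpl, Lipc, Lipg, Angptl8 and Gpihbp1.

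Lpl and Gpihbp1 act outside hepatocytes, so the markers of other liver cells are given beside them. Summed H3K27ac coverage of 10 endothelial markers was 131 to 154 kb in WT and 126 to 216 kb in KO, with 1 gene above WT without overlap and none at 0. For 8 Kupffer cell and macrophage markers it was 14.1 to 25.2 kb and 20.4 to 36.0 kb, with 1 gene above and Marco at 0. For 8 stellate cell markers it was 27.7 to 51.1 kb and 49.0 to 109 kb, with 4 genes above and none at 0. For 5 adipocyte markers it was 29.6 to 32.6 kb and 28.5 to 37.7 kb, with none above. Of all 15512 genes tested for H3K27ac, 1660 had KO above WT without overlap. These sums were not scaled, and the list of KO 4 was by far the longest (126 Mb). The part of these cells in the values of Lpl and Gpihbp1 was not tested.

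**Figure D5:**
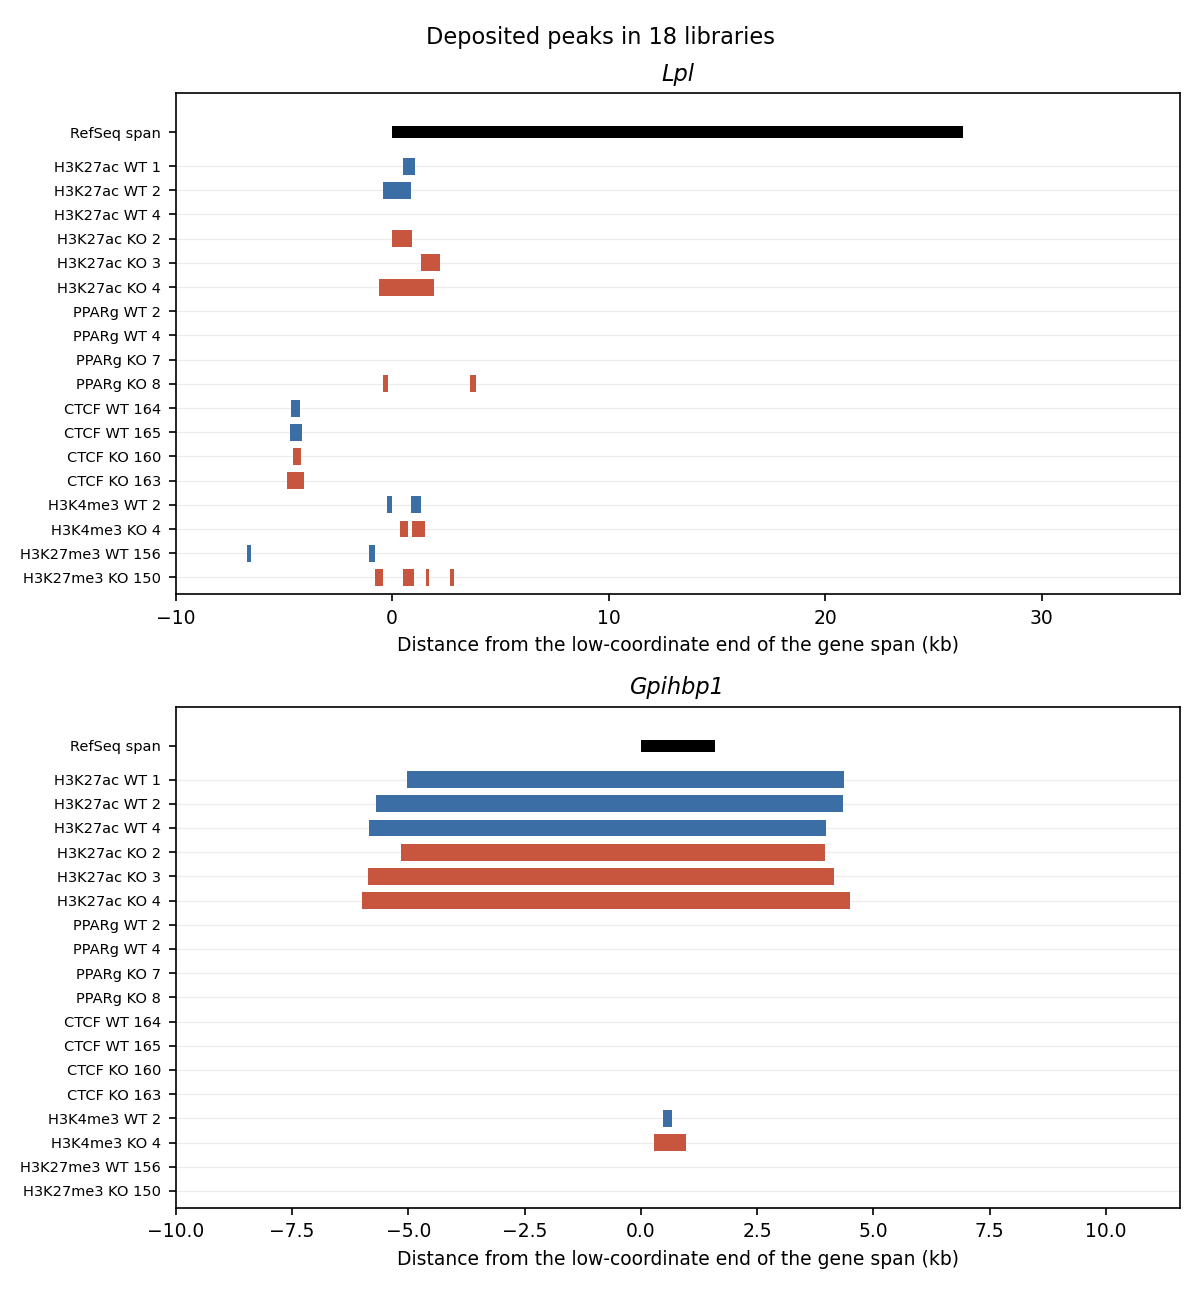
Deposited peaks of all 18 libraries (rows, blue for WT and red for KO) at Lpl and Gpihbp1, by distance in kb from the low-coordinate end of the gene span (black bar). Narrow peaks of both H3K27ac and H3K27me3 lie by the low-coordinate end of Lpl, and at Gpihbp1 the 6 H3K27ac blocks span the gene with no PPARg or CTCF peak.

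CTCF peaks lay at 4 members and at neither Angptl4 nor Gpihbp1, where 13306 of all 21887 genes had such a peak. Lipc had the largest fall, which did not pass the test. Its CTCF peaks covered 914 bp in WT164, 766 bp in WT165, 213 bp in KO160 and 498 bp in KO163. Both KO libraries lay below both WT libraries, as in 37.3% of all genes, and the log2 change was -1.12 (SE 0.44, limma adjusted p = 0.384), against a median of -0.36 over all genes. The region chr9:70924824-70925199 was called in all but KO163 and chr9:70929868-70930425 in all but KO160, so neither was lost from both KO livers.

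At Lipg the CTCF values were 648 bp and 767 bp in WT against 575 bp and 480 bp in KO, below WT without overlap but by -0.36 on the log2 scale (limma adjusted p = 0.649). Lpl had 408 bp and 550 bp in WT against 402 bp and 783 bp in KO. Angptl8 had 891 bp and 653 bp in WT against 906 bp and 684 bp in KO. Neither differed beyond the spread of the libraries, with log2 changes of 0.21 and 0.04 (limma adjusted p = 0.848 and 0.975). The single regions of Lpl (chr8:68875690-68876472), Lipg (chr18:74962924-74963727) and Angptl8 (chr9:21839664-21840658) were called in all 4 libraries, as 53.1% of all CTCF regions were. Percent called was 0 over 13306 genes for CTCF (limma, either direction, with 21 higher and 1739 lower at an unadjusted p under 0.05). Without WT164 or WT165 it called 1045 and 1434 genes, and no member among them.

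H3K4me3 and H3K27me3 had 1 library per genotype, so their values have no replicate check and no test. Genes were counted where the libraries differed 1.5-fold and at least 1 of them had 200 bp. H3K4me3 covered 1812 bp of Lipc in WT and 0 bp in KO. The WT signal was 3 weak peaks between chr9:70932659 and 70934758, next to the internal start, with folds of 4.91 to 6.54, none above percentile 35.49 of the list. Gpihbp1 went the other way, from 198 bp in WT to 693 bp in KO, both from 1 peak inside the gene with folds of 3.17 and 4.77. Of 13664 genes 8.50% were higher and 10.3% lower in KO by this rule, and among the members Gpihbp1 was higher and Lipc lower. Divided by total covered length the balance turned, with 1509 genes higher and 755 lower against 1162 and 1409 before, and Gpihbp1 and Lipc stayed on their sides. Above a −log10 q of 5 neither library had an H3K4me3 peak at Gpihbp1, and Lipc had 1233 bp in WT and 0 bp in KO. In the same 2 libraries the summed H3K4me3 coverage of hepatocyte markers was 43.1 kb in WT and 28.8 kb in KO, with 8 of 8 genes lower. That of stellate cell markers was 6.06 kb and 10.4 kb, with 6 of 8 genes higher and Des and Col1a1 at 0, and that of endothelial markers 11.1 kb and 11.8 kb, with 6 of 10 higher. These marker counts take any difference between the 2 libraries and not the 1.5-fold rule. No share of all genes was counted in that way, and the whole lists stood at 0.879 (KO over WT). The part of these cells in the values of Lipc and Gpihbp1 was not tested.

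The other H3K4me3 values stayed within 1.5-fold in the main setting. Lpl passed it after division by total covered length and above a −log10 q of 5 (247 bp in WT, 388 bp in KO). Above that q Angptl8 passed it as lower, with 1668 bp in WT and 0 bp in KO. Angptl4 had 4231 bp in WT and 3286 bp in KO, and its main peak had folds of 19.97 and 10.7, at percentiles 99.30 and 72.23 of the lists. Lipg had 3273 bp and 3022 bp, nearly all at its high-coordinate end, and Lpl had 682 bp and 991 bp. Angptl8 had 1668 bp and 1189 bp from 1 peak across its start, with folds of 12.5 and 4.19, and the KO peak was absent above a −log10 q of 5. H3K4me3 thus lay at the start of Angptl8 and at the high-coordinate ends of Lipg and Angptl4, and by the low-coordinate end of Lpl.

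Of all 21887 genes, 4157 had an H3K27me3 peak in their window, and among the 6 members only Lpl did. It had 463 bp in WT and 1198 bp in KO, a ratio of 2.59 against 1.56 for the whole lists, and 55.8% of 3856 genes were higher in KO by the 1.5-fold rule. Divided by total covered length, 1471 genes were higher and 1315 lower, against 2150 and 885 before, and Lpl was still higher. The peaks lay between -6.69 and 2.88 kb from the low-coordinate end, beside or on the weak H3K27ac and H3K4me3 peaks of the same gene. Their folds did not exceed 3.84, and above a −log10 q of 2 none was left in either library. Whether these marks lay in the same cells cannot be told apart in chromatin of whole liver.

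Around the members, a list of 32 genes of lipolysis and lipoprotein handling was set, of which 31 were found. In PPARg coverage 19 of 31 passed the limma test higher in KO (61.29%, against 49.1% of all genes), 0 lower, and KO lay above WT without overlap in 26 of 31, against 72.3% of all genes. The median log2 change was 1.10, below that of all genes at 1.29. Among the 19 were Apoc2, Apoc3, Apoc1, Apoa5, Apoa4, Apob, Angptl6, Creb3l3, Pcsk6, Lipa, Mgll, Cd36, Lrp1, Ppara, Pparg, Pltp and Mttp. After division by total covered length, limma called no gene.

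The largest of these changes was that of Mttp, which loads lipid onto apolipoprotein B in the endoplasmic reticulum. Its PPARg coverage was 787 bp and 912 bp in WT against 6134 bp and 6110 bp in KO, a log2 change of 2.72 (SE 0.20, limma adjusted p = 0.0135). Cd36, a fatty acid transporter of the cell surface, had 1912 bp and 1599 bp in WT against 10764 bp and 13175 bp in KO, a change of 2.70 (SE 0.20, limma adjusted p = 0.0135). Apoc2, which activates lipoprotein lipase, changed by 1.33 (limma adjusted p = 0.0135) and Apoc3, which inhibits lipolysis, by 0.99 (limma adjusted p = 0.0340). Lmf1, which matures the lipases in the endoplasmic reticulum, had 542 bp and 0 bp in WT against 1171 bp and 409 bp in KO (limma adjusted p = 0.271), and its groups overlapped.

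In H3K27ac, 0 of 30 tested genes of the list passed (limma). KO lay above WT without overlap at 4, Apoc3, Pnpla2, Cd36 and Mttp, and below at 1. Of all 15512 genes, 1660 lay above and 219 below in this way. Apoc3 was covered over 84.1% of its window in WT livers against 96.5% in KO livers (limma adjusted p = 0.692). Cd36, where PPARg coverage had risen, had 5.22% and 13.6% (limma adjusted p = 0.722). Neither angiopoietin-like member had such a separation of groups. In CTCF, 0 of 29 tested genes passed (limma), with KO above WT at 2 and below at 11, where 37.3% of all genes lay below in this way.

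Over all 18 libraries, the genes whose covered length tracked that of each member most closely, by Pearson r of log2(bp + 100), were Utp6 (0.8657) and E2f6 (0.8491) for Lpl, and Gm826 (0.9865) and Ces1b (0.9856) for Lipc. For Lipg they were Slc26a8 (0.9981) and Abcc2 (0.9972), and for Angptl4 G6pc (0.9988) and Etfa (0.9983). For Angptl8 they were Wwc1 (0.9976) and Nuak2 (0.9969), and for Gpihbp1 Zfp366 (0.9986) and Ecm1 (0.9981). The 18 points share 5 targets of very different covered length, which sets most of each r, so these are descriptions. Windows of the members also share bases with those of neighbours. That of Lipc shares 2102 bp with the window of Adam10, that of Angptl4 5587 bp with Rab11b and that of Gpihbp1 3014 bp with Zfp41.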

How the data were processed

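The 18 peak lists were called per library. Per the submitters' processing notes the tools were MACS2 2.1.2, BWA 0.7.12, deepTools 3.1.3 and Picard 1.77, with build mm10; the control used for peak calling is not given in the sources used here. Each deposited peak has a fold enrichment over background (a ratio), a −log10 p, a −log10 q and a whole-number score from the authors; the score and −log10 p were not used. Per the labels, the growth protocol of the ligation-kit libraries describes neural stem cells, while tissue and source are liver. Per the deposited names, CTCF lists were freed of blacklisted regions and PPARg lists were not.

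The members and gene lists were chosen with earlier results of these data known. The analysis was limited to chromosomes 1 to 19, X and Y, and intervals listed once per summit were collapsed. Covered bp per window (span from the RefSeq gene table of GRCm38.p6, without exons or strand, with 10 kb each side) were computed in Python 3.11.15. limma 3.58.1 in R 4.3.3 (lmFit, eBayes with trend) compared KO with WT over all genes, with Benjamini-Hochberg adjustment: percent of window for H3K27ac, log2(bp + 100) for PPARg and CTCF; genes that did not vary were left out. Regions were merged by an overlap of at least 1 bp. No scaling was applied in the main values. Only the limma fit was tried on simulated data, with the same spread for all genes and very large changes, so this says little about the real values. Peak lists give no read depth, so list sizes are the only guide to precision. Named genes were the 6 members, list genes past a test or else the first 4 in list order, and the 2 most alike genes per member; Pnpla2, Cd36 and Mttp were also named for H3K27ac after their values were seen, and some list genes are counted but not reported here by name. Alternatives were scaling by list length, other windows, pseudocounts, filters and thresholds, lists of equal length, a replicate block and leaving out libraries. Promoters came from RefSeq.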

Additional observations from a re-analysis of the deposited data

How the results depend on the processing

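The members' PPARg rise kept its direction under each alternative except scaling by total covered length (Lipc -0.44, Lipg -0.11, Angptl4 -0.35, Angptl8 -1.10) and, at Angptl8, the gene span alone (-0.48). Genes called for PPARg numbered 5023 in the main setting, 0 after scaling, 3020 with the gene span alone, 2250 at a −log10 q of 10, 2033 with lists of equal length, and 0 to 3739 when 1 library was left out. At a −log10 q of 10 the log2 changes were 0.59 for Lipc (limma adjusted p = 0.210), 1.43 for Lipg (0.0320) and 1.52 for Angptl4 (0.0447). In that setting 2226 of 6619 tested genes were called higher. With lists of equal length the changes were 0.34 (0.222), 1.26 (0.0343) and 0.95 (0.0437), and 1968 of 8426 genes were called higher. The gene span alone left Angptl4 at 0.61 (0.0691). For CTCF, leaving out 1 library gave 0 to 1434 genes; at a −log10 q of 10 Lpl turned to -1.36 and Lipg to 1.19, and with 1 library left out the changes ranged from -0.19 to 0.62 at Lpl and from -0.16 to 0.24 at Angptl8. H3K27me3 genes past 1.5-fold fell from 3035 to 1426 at a −log10 q of 2.

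No member was called for H3K27ac in any setting, and the direction was stable at Lpl alone (0.25 to 2.88, 0.64 without KO 4, on the percentage scale). In percentage points, scaling gave -0.27 for Lipc, -4.56 for Angptl4, -3.28 for Angptl8 and -5.35 for Gpihbp1. A window of 5 kb gave -0.0056 for Angptl8 and -0.17 for Gpihbp1, and the gene span alone 2.42 for Lipg and -18.4 for Angptl8. Leaving out 1 library gave -0.045 to 5.53 for Lipc, -2.71 to 2.39 for Lipg, -2.19 to 3.81 for Angptl4, -0.25 to 7.61 for Angptl8 and -0.81 to 2.41 for Gpihbp1. Replicate numbers 2 and 4 occur in both genotypes. The r of their libraries' deviations from the genotype means was -0.235 and -0.201 across genes. With so few libraries these deviations depend on each other, so r cannot tell whether equal numbers share an animal or a batch. With a replicate block limma called 45 genes (42 higher, 3 lower) against 0, and gave 1.12 for Lipg, -2.62 for Angptl4 and -0.57 for Gpihbp1. Regions at the members numbered 79, or 87 when an overlap of 50% of the shorter peak was asked for. By that rule the PPARg regions called in both KO libraries alone fell from 2 to 1. Read depth is unknown, and PPARg and CTCF rest on 2 libraries per genotype, with WT 4 of PPARg from another kit.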
